A study of Mus musculus with 6 samples.

Results

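The 10 genes described here are the class II genes of the mouse major histocompatibility complex that had a row in the deposited expression table, together with their transactivator. They were chosen by gene symbol from a list of class II chains, the invariant chain, peptide loading genes and Ciita, and all 10 were found among 12161 genes. The samples were LSK cells (lineage-negative, Sca1-positive, Kit-positive bone marrow cells, the fraction that holds blood stem cells and early progenitors) from C57BL/6 mice. The MIG-Hhex group (3 libraries, genotype label Hhex) received a retrovirus that carries Hhex, and the MIG group (3 libraries, genotype label wild-type) received the vector without it. Both groups spent 2 days in StemPro-34 medium, with 50 ng/mL each of SCF and Flt3 ligand and 10 ng/mL each of IL-3 and IL-6, and RNA came from cells sorted as GFP-positive. Hhex, a homeobox transcription factor, is driven by the retroviral vector here, so its level is not the cell's own. Each group has 1 library of replicates WT3, WT691 and WT703; the labels place both WT3 libraries on flow cell C3RJFACXX and the other 4 on C5LWPANXX. The labels do not say whether equal replicate names are the same mouse or a pool of mice.

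Class II molecules display peptides from endosomes to CD4+ T cells, and dendritic cells, B cells and macrophages are the cells best known for carrying them. The alpha and beta chains pair in the endoplasmic reticulum with the invariant chain, encoded by Cd74, which guides them to endosomes. There H2-DM exchanges the invariant chain remnant for peptide and H2-O holds H2-DM back. Ciita does not bind DNA itself; it docks on the RFX, CREB and NF-Y factors that sit on the X and Y boxes of class II promoters.

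The shared promoter layout is shown for the class II genes whose start-site window, 250 bases before to 50 after the start, had an inverted CCAAT, the core of the Y box, close to the start. RefSeq (GRCm38.p6) windows were matched by symbol for 7 of the 10 genes; those of Ciita, Cd74 and H2-Ab1 had no match. The stretches lie at chr17:34287847-34287927 for H2-Aa (minus strand), and on the plus strand at chr17:34305752-34305832 for H2-Eb1, chr17:34153074-34153154 for H2-DMb1, chr17:34145103-34145183 for H2-DMb2, chr17:34092280-34092360 for H2-Oa and chr17:34238792-34238872 for H2-Ob. Capitals mark GATTGG (the Y box core) in all 6, AACNNATGATG (a pattern at the place of the X box) in 4, and TGACGTCA (the full CREB site) in H2-Aa.
H2-Aa: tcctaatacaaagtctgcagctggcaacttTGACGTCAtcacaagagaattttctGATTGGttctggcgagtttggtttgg
H2-Eb1: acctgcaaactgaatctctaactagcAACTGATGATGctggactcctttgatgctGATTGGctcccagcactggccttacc
H2-DMb1: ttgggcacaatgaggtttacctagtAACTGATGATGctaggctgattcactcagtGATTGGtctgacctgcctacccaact
H2-DMb2: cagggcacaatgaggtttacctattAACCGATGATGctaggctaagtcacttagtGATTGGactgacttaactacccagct
H2-Oa: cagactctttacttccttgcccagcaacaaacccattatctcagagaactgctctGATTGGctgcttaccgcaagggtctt
H2-Ob: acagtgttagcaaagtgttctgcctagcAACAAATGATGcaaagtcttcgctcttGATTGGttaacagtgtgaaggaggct

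AACNNATGATG holds the letters shared by the 4 class II windows in which ATGATG stood before GATTGG with 15 to 25 bases between. Its presence in them, and that spacing, are therefore no result. The patterns were chosen after those windows had been read, and both strands were searched. GATTGG occurred in 16.1% of all 32851 windows of this length, AACNNATGATG in 0.137% and TGACGTCA in 1.79%. The 2 patterns GATTGG and AACNNATGATG together occurred in 11 windows. In H2-Eb1, H2-DMb1, H2-DMb2 and H2-Ob the bases between them numbered 18, 19, 19 and 16, and with 15 to 25 bases between them on the printed strand they occurred in 4 windows, those of these genes. GATTGG also lay in 1 of the 2 windows of H2-DMa, 199 bases before that start. A match describes letters and shows no binding. Of the 6 genes printed, H2-Aa and H2-Eb1 were called higher with MIG-Hhex and H2-Oa lower, while H2-DMb1, H2-DMb2 and H2-Ob missed the threshold. Of the 4 genes with the spaced pair of patterns, H2-Eb1 was the 1 called, and 18% of all genes were called. With so few genes, such a count says nothing about the patterns. Whether the patterns go with the calls was not tested.

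With MIG-Hhex, 6 of the 10 class II genes rose and 1 fell, and the other 3 missed the threshold (limma, adjusted p under 0.05). Ciita, Cd74, H2-Aa and H2-Eb1 rose at least 4-fold, H2-Ab1 and H2-DMa rose by smaller amounts, and H2-Oa fell. Over all genes, 18% passed in either direction, 9.44% higher and 8.52% lower. The median difference of the 10 genes was 0.97 on the log2 scale, beside -0.02 over all genes. The groups of 3 libraries did not overlap for 5 of the 10 genes upwards and for 1 downwards, against 10.2% and 11% of all genes, or 21.2% in either direction. Of the 122 genes (1% of all) with a log2 difference of at least 2 upwards, 4 are Ciita, Cd74, H2-Aa and H2-Eb1. H2-Aa and H2-Eb1 lie close to that cut, at 2.12 and 2.06. With 1 added on the linear scale, Cd74 had 2.25, H2-Aa 1.77, H2-Eb1 1.45 and Ciita 0.50. The fit has no term for pairs of equal replicate names. With such a term, the replicate block, 8 of the 10 genes rose and 1 fell, beside 1506 and 1473 of all 12161. Without a flow cell term 3 rose and 0 fell, beside 119 and 98 of all genes. With 1 library or 1 pair left out, 3 to 5 rose and 0 fell, beside 355 to 835 and 270 to 634 of all genes.

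**Figure D1:**
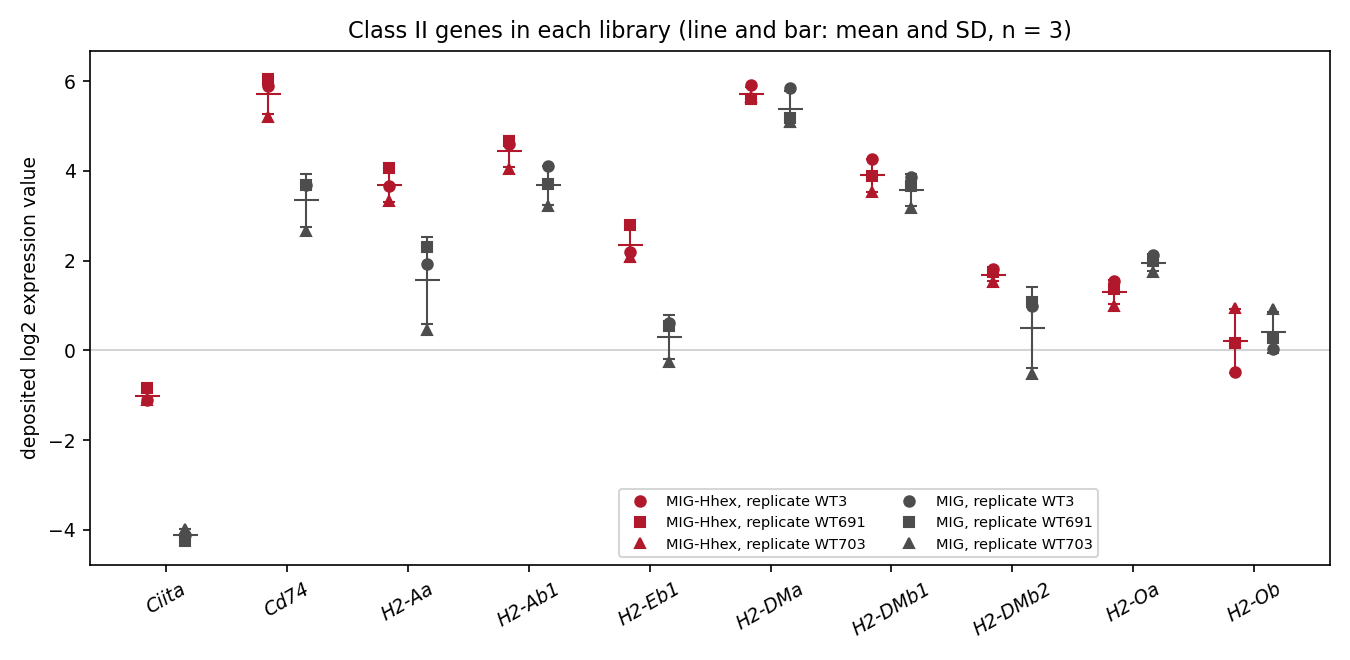
Deposited log2 expression value (y axis) of each class II gene (x axis) in the 3 MIG-Hhex libraries (red, left) and the 3 MIG libraries (grey, right); symbols mark replicates, and lines and bars give the mean and SD. For Ciita, Cd74, H2-Aa, H2-Eb1 and H2-DMb2 all red points lie above all grey ones, and for H2-Oa all lie below.

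The authors made these log2 expression values; their depth is unknown, so no counting interval can be given. Library medians lay between 3.56 and 3.60. Multiplying the unlogged values by exon length brought the coefficient of variation of the library sums to 0.896%, against 6.19% without it. On that basis, levels are compared between genes here as values per length. In bulk RNA, a change in the number of cells of a type and a change in RNA per cell cannot be told apart. Hhex had log2 values of 7.61, 9.34 and 9.06 in the MIG-Hhex libraries of WT3, WT691 and WT703, against 5.18, 5.05 and 5.13 in the MIG libraries. Its difference was thus smallest in the WT3 pair, at 2.43, beside 4.29 and 3.93.

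Ciita, the class II transactivator (Entrez 12265, chr16:10480014-10531064), had log2 values of -1.11, -0.83 and -1.11 in the MIG-Hhex libraries of WT3, WT691 and WT703, against -4.12, -4.26 and -3.99 in the MIG libraries. The groups stood far apart and each was tight, with an SD of 0.16 with MIG-Hhex and 0.14 with MIG. Ciita rose 8.60-fold (log2 3.10, SE 0.39, limma adjusted p = 0.00483). It passed in each of 9 left-out runs, in which 1 library or 1 pair was dropped (limma adjusted p 0.0148 to 0.0481). It was nonetheless the lowest of the 10 genes in both groups. With 1 added on the linear scale its difference was 0.50 on the log2 scale (limma adjusted p = 0.0085), so its fold depends on the offset of the log. Ciita is known to start from separate promoters in dendritic cells, in B cells and after interferon gamma; the table has 1 value per gene and does not separate them, and Dexi overlaps the gene in RefSeq.

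Cd74 (Entrez 16149, chr18:60803849-60812652) had log2 values of 5.90, 6.03 and 5.20 in the MIG-Hhex libraries of WT3, WT691 and WT703, against 3.68, 3.69 and 2.66 in the MIG libraries. The lowest MIG-Hhex library stood above the highest MIG library by more than 1 on the log2 scale. Cd74 rose 5.16-fold (log2 2.37, SE 0.31, limma adjusted p = 0.00523). Its 3 pair differences, 2.23, 2.34 and 2.54, were close to one another, and the call held in all 9 left-out runs (limma adjusted p 0.00118 to 0.032). In the order of levels Cd74 was second of the 10 genes with MIG-Hhex, its range overlapping that of H2-DMa above it, and stood behind H2-DMa, H2-Ab1 and H2-DMb1 with MIG.

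Of the classical chains, H2-Aa encodes the alpha chain and H2-Ab1 the beta chain of I-A, and H2-Eb1 encodes the beta chain of I-E. C57BL/6 mice are known to lack the I-E alpha chain, so I-E does not reach their cell surface; H2-Ea was not analysed here. H2-Aa (Entrez 14960, chr17:34282744-34287823) had log2 values of 3.66, 4.06 and 3.33 in the MIG-Hhex libraries, against 1.92, 2.30 and 0.46 in the MIG libraries. The groups did not overlap, and the MIG library of WT703 stood lowest. H2-Aa rose 4.35-fold (log2 2.12, SE 0.47, limma adjusted p = 0.0268), but lost the call in 5 of 9 left-out runs (limma adjusted p at most 0.10). Those were without either or both WT3 libraries, or without the MIG-Hhex library of WT691 or WT703. The run without both WT3 libraries, which is the fit within flow cell C5LWPANXX, gave log2 2.31 (limma adjusted p = 0.0836).

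H2-Eb1 (Entrez 14969, chr17:34305867-34316674) had log2 values of 2.18, 2.79 and 2.08 in the MIG-Hhex libraries of WT3, WT691 and WT703, against 0.60, 0.54 and -0.27 in the MIG libraries. Again every MIG-Hhex library lay above every MIG library. H2-Eb1 rose 4.17-fold (log2 2.06, SE 0.30, limma adjusted p = 0.00788) and passed in all 9 left-out runs (limma adjusted p 0.0133 to 0.0283). H2-Ab1 (Entrez 14961, chr17:34263227-34269418) had 4.61, 4.68 and 4.05 with MIG-Hhex, against 4.10, 3.71 and 3.22 with MIG. Its groups overlapped, since the MIG-Hhex library of WT703 lay just below the MIG library of WT3. H2-Ab1 rose 1.70-fold (log2 0.77, SE 0.20, limma adjusted p = 0.0448). It lost the call in 8 of 9 left-out runs, all but the one without the WT691 pair (limma adjusted p at most 0.124). The run without the WT3 pair, which is the fit within flow cell C5LWPANXX, gave log2 0.90 (limma adjusted p = 0.0954).

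The 2 chains of I-A thus stood nearer in level with MIG-Hhex. H2-Aa minus H2-Ab1 was -0.95, -0.62 and -0.72 on the log2 scale in the MIG-Hhex libraries of WT3, WT691 and WT703, against -2.18, -1.41 and -2.76 in the MIG libraries. The groups did not overlap, and the means were -0.76 ± 0.17 and -2.12 ± 0.68 (SD, n = 3 each). An exact two-sided permutation test gave p = 0.1, the smallest that 3 against 3 allows. This gap was picked after the values had been seen.

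**Figure D2:**
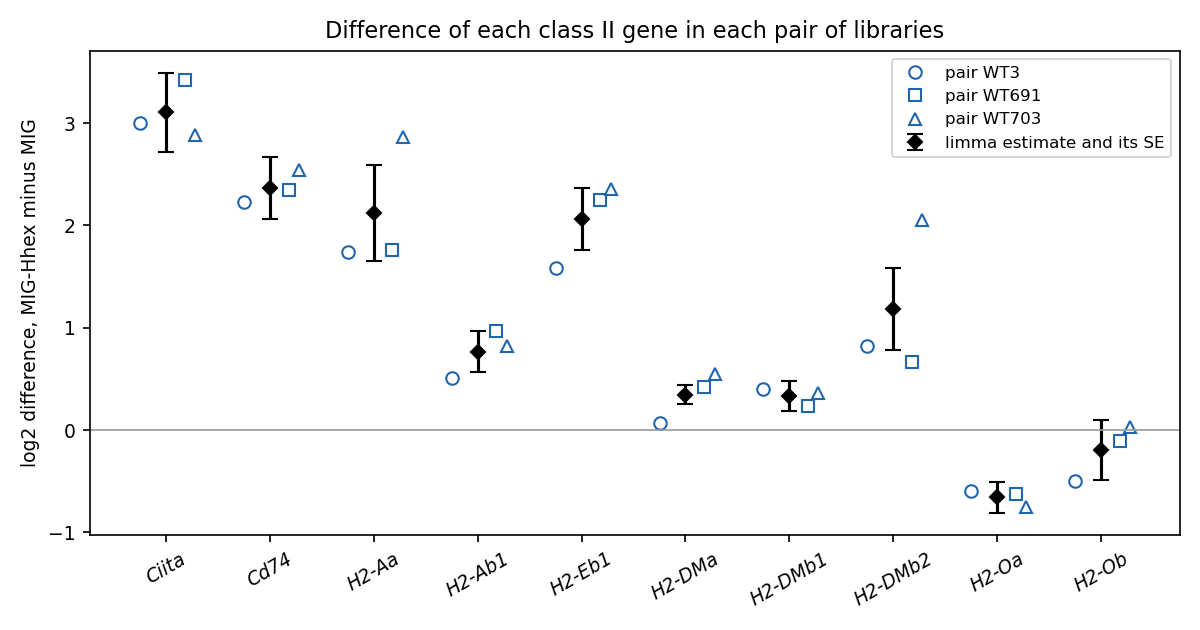
Log2 difference, MIG-Hhex minus MIG (y axis), of each class II gene (x axis); open symbols are the 3 pairs of libraries with the same replicate name, and black diamonds with bars are the limma estimate and its SE. Ciita, Cd74, H2-Aa and H2-Eb1 lie above 1.5 in each pair, and H2-Oa lies below 0 in each.

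H2-DM, the peptide exchange factor, is made of an alpha chain (H2-DMa) and a beta chain from either H2-DMb1 or H2-DMb2. H2-DMa (Entrez 14998, chr17:34119693-34139101) had log2 values of 5.91, 5.61 and 5.64 in the MIG-Hhex libraries of WT3, WT691 and WT703, against 5.84, 5.19 and 5.10 in the MIG libraries. It had the highest mean level of the 10 genes in both groups, and the groups overlapped through the MIG library of WT3. H2-DMa rose 1.27-fold (log2 0.34, SE 0.09, limma adjusted p = 0.047) and lost the call in the 6 left-out runs that dropped a WT691 or WT703 library or pair (limma adjusted p at most 0.223). Its difference was 0.07 in the WT3 pair and 0.42 and 0.54 in the other 2. The test of that contrast between flow cells gave -0.42 on the log2 scale (SE 0.11, limma unadjusted p = 0.0136, adjusted p = 0.946). H2-DMa overlaps Brd2, which lies on the opposite strand, and the strandedness of the counting is not given in the sources used here.

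H2-DMb2 (Entrez 15000, chr17:34143229-34151553) had log2 values of 1.81, 1.74 and 1.52 in the MIG-Hhex libraries of WT3, WT691 and WT703, against 0.98, 1.07 and -0.53 in the MIG libraries. The groups did not overlap, and most of the spread came from the MIG library of WT703. Its log2 difference of 1.18 (SE 0.40) missed the threshold (limma adjusted p = 0.0883) and passed with the replicate block (limma adjusted p = 0.031) and without the MIG library of WT691 (limma adjusted p = 0.0316). The other 8 left-out runs did not call it, and without the MIG library of WT703 the difference was 0.67 (limma adjusted p = 0.0724). H2-DMb1 (Entrez 14999, chr17:34153191-34160229) had 4.27, 3.90 and 3.54 with MIG-Hhex, against 3.87, 3.66 and 3.18 with MIG, and its groups overlapped. Its difference of 0.33 (SE 0.15, limma adjusted p = 0.172) was positive in each pair and passed with the replicate block (limma adjusted p = 0.0179). Of the 50-base windows in the coding transcripts of H2-DMb1, 27.2% also occurred in H2-DMb2, so the authors' counting could split reads between them and both values are uncertain.

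H2-O, the inhibitor of H2-DM, is made of H2-Oa and H2-Ob and is known mainly from B cells and some dendritic cells. H2-Oa (Entrez 15001, chr17:34092379-34095234) had log2 values of 1.54, 1.37 and 0.99 in the MIG-Hhex libraries of WT3, WT691 and WT703, against 2.13, 1.99 and 1.75 in the MIG libraries. Every MIG-Hhex library lay below every MIG library; BC051537 overlaps the gene in RefSeq. H2-Oa fell 1.58-fold (log2 -0.66, SE 0.15, limma adjusted p = 0.0294) with pair differences of -0.59, -0.63 and -0.76. The call did not survive dropping any library or pair (9 runs, limma adjusted p 0.0541 to 0.0954). The run without the WT3 pair, which is the fit within flow cell C5LWPANXX, gave log2 -0.69 (limma adjusted p = 0.0952). H2-Ob (Entrez 15002, chr17:34238905-34245908) had -0.48, 0.16 and 0.94 with MIG-Hhex, against 0.02, 0.27 and 0.91 with MIG. Its groups overlapped, with a difference of -0.19 (SE 0.29, limma adjusted p = 0.679).

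The level of the H2-DM chains over that of the H2-O chains, each taken as the mean log2 value of its genes, was 3.47, 2.98 and 2.60 in the MIG-Hhex libraries of WT3, WT691 and WT703, against 2.49, 2.17 and 1.25 in the MIG libraries. The groups did not overlap, and the difference between their means was 1.05 on the log2 scale. H2-DMa, H2-DMb1 and H2-DMb2 differed by 0.34, 0.33 and 1.18, and H2-Oa and H2-Ob by -0.66 and -0.19. H2-DMb2, with the largest of these, missed the threshold. The exact two-sided permutation test gave p = 0.1, the smallest value possible here. Within each pair the MIG-Hhex library stood higher.

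**Figure D3:**
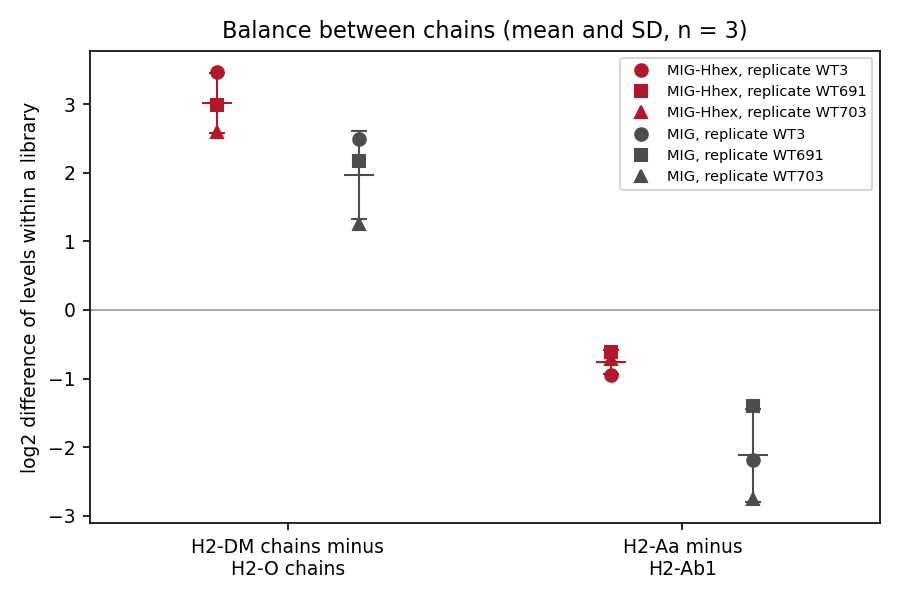
Log2 difference between the levels of 2 sets of chains within 1 library (y axis), for H2-DM minus H2-O chains and for H2-Aa minus H2-Ab1; red is MIG-Hhex (left), grey is MIG (right), with mean and SD of 3 libraries. In both cases the 3 MIG-Hhex libraries lie above the 3 MIG libraries, at means of 3.02 and -0.76 with MIG-Hhex against 1.97 and -2.12 with MIG.

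By mean level with MIG-Hhex the genes ran H2-DMa, Cd74, H2-Ab1, H2-DMb1, H2-Aa, H2-Eb1, H2-DMb2, H2-Oa, H2-Ob and Ciita. The library ranges of neighbours in that order overlapped for H2-DMa and Cd74, for H2-Ab1 and H2-DMb1, for H2-DMb1 and H2-Aa, and for H2-DMb2 and H2-Oa. With MIG the order was H2-DMa, H2-Ab1, H2-DMb1, Cd74, H2-Oa, H2-Aa, H2-DMb2, H2-Ob, H2-Eb1 and Ciita, and only the first, the fourth and the ninth gene stood clear of the next one down. H2-Oa stood above H2-Aa and H2-Eb1 by mean level with MIG and below both with MIG-Hhex.

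In each pair most of the class II genes stood higher with MIG-Hhex. Of the 10 genes, 8 had a positive difference in the WT3 pair, 8 in the WT691 pair and 9 in the WT703 pair, with medians of 0.67, 0.82 and 1.44 beside medians over all genes of -0.02, -0.03 and -0.02. The WT3 pair is the only one on its flow cell, so flow cell and replicate cannot be told apart there. The interaction of vector and flow cell was called for 0 of the 10 genes and for 0% of all genes (limma, adjusted p under 0.05), a test with few degrees of freedom. At an unadjusted p under 0.05 it held 1 of the 10 genes, H2-DMa, and 600 of all genes.

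Across the 6 libraries, the values of H2-Eb1 and H2-Aa followed those of Cd74 most closely among the class II genes. Pearson's r with Cd74 was 0.988 for H2-Eb1, 0.974 for H2-Aa, 0.933 for Ciita, 0.923 for H2-Ab1 and 0.900 for H2-DMb2. It was 0.718 for H2-DMb1, 0.669 for H2-DMa, -0.461 for H2-Ob and -0.658 for H2-Oa. Outside the class, genes most like Cd74 by the same measure included 4632428N05Rik (r = 0.995), the kinase Pak1 (0.994), Plxnd1, a semaphorin receptor (0.992), and Lpcat2, a lysophospholipid acyltransferase (0.991). These were among the 5 highest of 3662 genes other than Cd74 whose range over the libraries was at least 1. On that scale H2-Eb1 ranked 10, H2-Aa 36, Ciita 166, H2-Ab1 196 and H2-DMb2 256. Further down, H2-DMb1 ranked 678, H2-Ob 2752 and H2-Oa 3083, so many genes outside the class followed Cd74 as closely as most class II genes did. The points share the vector groups and the libraries, so the figures describe these 6 libraries and nothing beyond them.

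The other measured genes listed in and near the class II region did not pass the test. The 8 class II genes on chromosome 17 lie within 224.3 kb between H2-Oa and H2-Eb1, among 13 genes with a row, and 5 of those belong to other families. Of 9 region neighbours measured, 0 rose and 0 fell (limma), beside 9.44% and 8.52% of all genes. With so few genes, a count of 0 differs little from those shares. The replicate block gave 1 higher. The immunoproteasome genes Psmb8 and Psmb9 had differences of 0.18 and 0.17, and the peptide transporter genes Tap1 and Tap2, which serve class I, had 0.21 and 0.00 (limma adjusted p 0.0944, 0.203, 0.114 and 0.998). Brd2, a bromodomain protein, had -0.05, Rxrb, a retinoid X receptor, 0.05, Ring1, a Polycomb protein, 0.17, Col11a2, a collagen, -0.26, and Notch4, a Notch receptor, 0.20 (limma adjusted p 0.276 to 0.841). Rxrb, Ring1, Col11a2 and Notch4 lie outside the 224.3 kb. Whether class II genes and neighbours differ as sets was not tested.

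**Figure D4:**
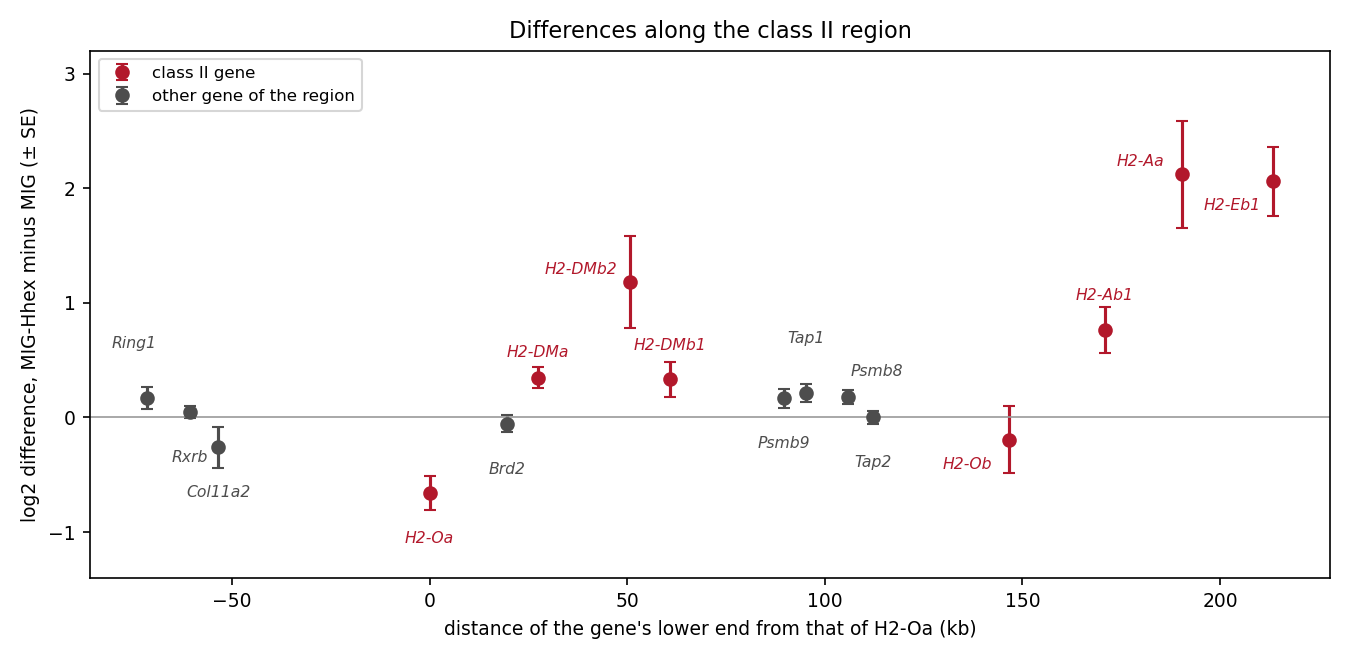
Log2 difference, MIG-Hhex minus MIG, with SE (y axis) against the distance of each gene's lower end from that of H2-Oa in kb (x axis), for class II genes (red) and other measured genes of the region (grey); Notch4 lies beyond the axis. H2-Aa and H2-Eb1 stand above 2, H2-Oa lies at -0.66, and the grey genes lie between -0.26 and 0.21.

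Of 25 measured factors known to act on class II transcription, 2 rose and 1 fell, beside 9.44% and 8.52% of all genes, and the median was 0.03; the block gave 4 higher. Irf8, an interferon regulatory factor of dendritic cell and monocyte development, rose by 0.54 (SE 0.06, limma adjusted p = 0.00372) and Ep300, a histone acetyltransferase, by 0.30, while Rfxap, an RFX subunit, fell by 0.35. Spi1, the factor PU.1, had a difference of 0.28 (limma adjusted p = 0.0532). The other RFX subunits, named after their values were seen, had 0.23 for Rfx5 and -0.04 for Rfxank without passing (limma adjusted p = 0.189 and 0.871). The calls of Ep300 and Rfxap were lost in 8 and 9 of the 9 left-out runs.

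Interferon gamma is the best known inducer of Ciita, in part through Irf1. Of 15 measured genes of that pathway, 4 rose and 1 fell, beside 9.44% and 8.52% of all genes, and the median was 0.29. The guanylate-binding GTPase Gbp2 rose by 0.97 (SE 0.17, limma adjusted p = 0.0143), the GTPase Igtp by 0.88 and the chemokine Cxcl10 by 1.49, while Ifngr2, a receptor chain, fell by 0.41. Irf1, named after its value was seen, had 0.17 without passing (limma adjusted p = 0.118). In left-out runs Cxcl10 lost its call in 6 of 9, Ifngr2 in 7, Gbp2 in 3 and Igtp in 2. Those runs gave 0 to 4 higher genes in this list, and the replicate block gave 8 higher and 3 lower.

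Of 21 measured genes listed for class II processing and turnover, 3 rose, 3 fell and 15 missed the threshold. Over all genes 9.44% rose and 8.52% fell. The median of the list was 0.17, and the replicate block gave 8 higher and 5 lower. The tetraspanins Cd82 and Cd9 rose by 1.62 and 1.46, while the tetraspanin Cd37 fell by 1.64 and Lgmn, the endosomal protease legumain, by 0.84 (limma adjusted p 0.000784 to 0.0027). The remaining calls, named after their values were seen, were Cd63 at 0.38 and Asph at -1.24 (limma adjusted p = 0.00944 and 0.00505). Whether Asph takes part in class II processing was not tested. Ctss, the cathepsin that trims the invariant chain, Ifi30, the endosomal thiol reductase, and March1, a ubiquitin ligase that removes class II from the surface, were named after their values were seen and missed the threshold. Their differences were 0.27, 0.23 and -1.51 (limma adjusted p = 0.236, 0.405 and 0.0632).

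Of 10 measured co-stimulatory and related genes of antigen-presenting cells, 4 rose and 1 fell, beside 9.44% and 8.52% of all genes. Their median was 0.56. Icosl, the ligand of ICOS, rose by 0.87, Tnfsf9, the ligand of 4-1BB, by 0.64 and the chemokine receptor Ccr7 by 1.15, while Tnfsf4, the ligand of OX40, fell by 1.49 (limma adjusted p 0.0148 to 0.0267). Cd86 and Cd80, the ligands of CD28, were named after their values were seen and had -0.74 and 0.48 without passing (limma adjusted p = 0.0954 and 0.227). Ccr7 was called in 0 of 9 left-out runs (limma adjusted p 0.0585 to 0.11), Tnfsf9 lost its call in 5, and Icosl and Tnfsf4 in 4 each. Those runs gave 0 to 3 higher genes here.

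**Figure D5:**
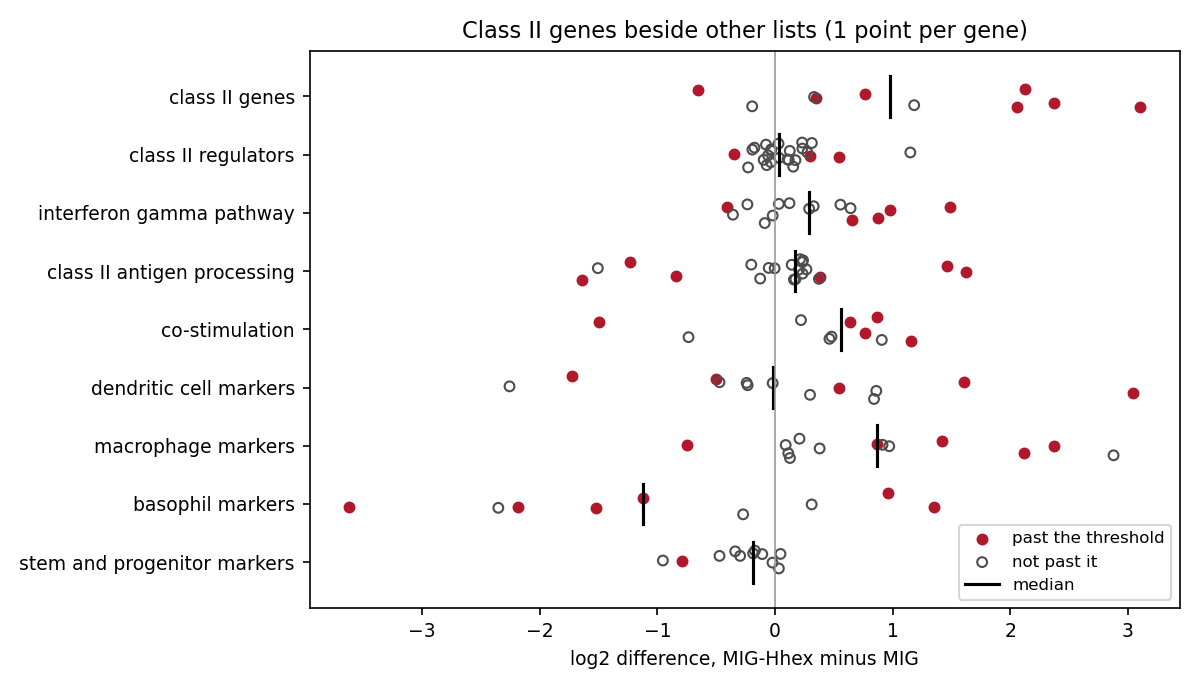
Log2 difference, MIG-Hhex minus MIG (x axis), of each measured gene in the class II group and in 8 other lists (y axis); filled red points passed the threshold, open points did not, and black lines are medians. The class II median is 0.97 and that of its regulators 0.03; macrophage markers have a median of 0.87 and basophil markers one of -1.12.

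Markers of cells that carry class II were also measured, and some moved in the same direction. Of 13 macrophage markers, 4 rose and 1 fell, beside 9.44% and 8.52% of all genes, and the median was 0.87. Adgre1, an adhesion receptor of macrophages, rose by 1.42 (SE 0.20, limma adjusted p = 0.00695), Cx3cr1, the fractalkine receptor, by 0.87 and C1qc, a complement chain, by 2.11, while the lipopolysaccharide coreceptor Cd14 fell by 0.75. Cx3cr1 lost its call in 8 of 9 left-out runs, C1qc in 7 and Cd14 in 1. Those runs gave 1 to 5 higher genes in this list, and the replicate block gave 6. The macrophage markers summed, unlogged, to between 105.9 and 173.6 in the MIG-Hhex libraries, against 62.9 to 133.5 in the MIG libraries. Csf1r, the receptor of macrophage colony-stimulating factor, had 0.97 (limma adjusted p = 0.0609) and Cd68 had 0.21 (limma adjusted p = 0.466).

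Of 13 dendritic cell markers measured of 19 listed, 3 rose and 2 fell, beside 9.44% and 8.52% of all genes. The median was -0.02. Itgax, the integrin CD11c, rose 8.24-fold (log2 3.04, SE 0.22, limma adjusted p = 0.00118), with values of 1.32, 2.68 and 2.27 in the MIG-Hhex libraries of WT3, WT691 and WT703, against -1.66, -0.89 and -0.31 in the MIG libraries. Zbtb46, a factor of classical dendritic cells named after its value was seen, rose by 1.61 from a low level (limma adjusted p = 0.0433). Its groups overlapped, with -1.80 in both the MIG-Hhex library of WT703 and the MIG library of WT3. With 1 added on the linear scale the list gave 2 higher genes. Tcf4, a factor of plasmacytoid dendritic cells, fell by 0.50 and the lectin Clec4a2 fell by 1.72 on the log2 scale. Tcf4 lost its call in 4 of 9 left-out runs and Clec4a2 in 5; those runs gave 0 to 3 lower genes in this list, and the replicate block gave 4. Bst2 and Sirpa, surface proteins also found on other cells, had 0.30 and -0.24 (limma adjusted p = 0.073 and 0.239). The list summed, unlogged, to between 231.2 and 282.1 in the MIG-Hhex libraries, against 208.3 to 275.5 in the MIG libraries; Clec9a, Xcr1, Cd209a, Siglech, Cd8a and Cadm1 were not analysed here.

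Of 14 B cell markers, 1 had a row, Cd79b, at a difference of 0.24 (limma adjusted p = 0.0607). Ms4a1 and Pax5 were not analysed here. Of 9 basophil markers, 2 rose and 4 fell, beside 9.44% and 8.52% of all genes, with a median of -1.12. Mcpt8, Cpa3 and Cd200r3 fell by 1.12, 2.19 and 3.62. Cd200r3 was low, at -4.53 in the MIG-Hhex libraries of both WT691 and WT703, so its fall depends on the offset of the log. Il6ra and Hdc rose by 0.96 and 1.35, and Gata2 had 0.31 (limma adjusted p = 0.0935). The unlogged sum of the 9 basophil markers was between 212.1 and 330.2 in the MIG-Hhex libraries, against 231.5 to 479.7 in the MIG libraries. Of 11 stem and progenitor markers, 0 rose and 1 fell, beside 9.44% and 8.52% of all genes. The 1 that fell was Meis1, by 0.79. Meis1 lost its call in 3 of 9 left-out runs; those runs gave 0 to 2 lower genes in this list, and the replicate block gave 3. Cd48, Mecom and Flt3 had -0.34, -0.95 and -0.47 (limma adjusted p = 0.0543, 0.0838 and 0.182). Kit, named after its value was seen, had -0.17, Cd34 -0.19 and Ly6a, which encodes Sca1, 0.05 (limma adjusted p 0.265 to 0.833). Kit, Ly6a and Cd34 averaged 4.56, 5.22 and 7.10 with MIG-Hhex, against 4.73, 5.17 and 7.29 with MIG. The part of macrophage, dendritic or basophil RNA in the class II values was not tested.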

How the data were processed

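Messenger RNA libraries were sequenced from 6 samples. The authors deposited normalized log2 expression values, 1 row per Entrez gene; Subread, featureCounts, limma and edgeR with build mm10 are named per the submitters' processing notes, and the normalization method is not given in the sources used here. Depth is therefore unknown, and low log2 values depend on an unknown offset. The deposited values were fitted with limma 3.58.1 in R 4.3.3, with terms for flow cell and vector, eBayes with a mean-variance trend, two-sided tests and Benjamini-Hochberg adjustment over all 12161 genes (threshold 0.05); no gene was filtered. The fit was tested on simulated data. Differences are MIG-Hhex minus MIG. Where no source says that samples came from separate animals, p-values measure the spread between these samples.

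Equal replicate names were taken as pairs for the pair differences and the replicate block, and the main fit has no term for them. Deviations from the group means correlated at 0.742, 0.585 and 0.656 for WT3, WT691 and WT703. Unlike names gave 0.166 and 0.087 within flow cell C5LWPANXX, and -0.588 to -0.479 across flow cells. The WT3 pair is alone on its flow cell, so its correlation holds that too. Coordinates are from RefSeq GRCm38.p6, the same build as mm10; 12052 Entrez IDs matched. The members and lists were chosen with earlier results of these data known. Genes named are the 10 members, Hhex, the region neighbours, the 4 smallest p-values of each list, the 3 highest marker levels where described, and the 5 genes most like Cd74; some genes the rule names are not reported here, and others are marked as chosen after their values were seen. Alternatives covered the block, flow cell term, variance model, normalization, filter, offset and left-out libraries.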

Additional observations from a re-analysis of the deposited data

How the results depend on the processing

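Over 18 alternatives, the 10 class II genes gave 179 values, and all 179 kept the direction reported. The block, the fit without a flow cell term, the variance models and the filter leave the estimate itself unchanged, so their direction was fixed. The fit within flow cell C5LWPANXX and the run without the WT3 pair are the same fit, and both are counted. Of the 179 values, 135 kept their side of the threshold, 41 lost the call and 3 gained one. Cd74 and H2-Eb1 kept their call throughout, and so did Ciita, which the filter on a mean of at least 0 removes. The count of 6 higher genes became 3 without a flow cell term and 3 without the variance trend, and 3 to 5 with a library or replicate name left out. The count of 1 lower gene, H2-Oa, became 0 without a flow cell term and 0 within flow cell C5LWPANXX, and 0 in every left-out run. With the replicate block 8 were higher and 1 lower, the additions being H2-DMb1 and H2-DMb2, and no other class II call changed. Over all genes the block gave 1506 higher and 1473 lower genes, and the fit without a flow cell term gave 119 and 98, against 1148 and 1036. In that fit the other lists gave 0 higher and 0 lower genes for regulators, interferon gamma, co-stimulation, macrophage and basophil markers. Dendritic cell markers gave 1 higher and 0 lower, stem and progenitor markers 0 lower, and processing genes 2 higher and 2 lower. Leaving out either WT3 library gives the same estimate as leaving out the pair; the cause of the lost calls was not tested.

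Signs turned for some genes near 0 that were not called: Brd2 was 0.0191 and Ly6a -0.12 within flow cell C5LWPANXX, which is also their value without replicate WT3, and Tap2 was -0.0069 with libraries centred on their medians. In left-out runs Brd2 ran from -0.14 to 0.0191, Ly6a from -0.12 to 0.18, Tap2 from -0.0254 to 0.0235, Notch4 from -0.40 to 0.57 and Cd68 from -0.0039 to 0.38. The gap between H2-DM and H2-O chains ran from 0.69 to 1.31 in left-out runs and was 0.76 with 1 added on the linear scale. Depth is unknown, so its limit on the lowest values, those of Ciita above all, cannot be given.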
